A study of Mus musculus with 8 samples.

Results

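The promoter peaks of protein-coding genes were peaks of H3K27Ac, acetylation of lysine 27 of histone H3, centred in a narrow window around a gene start. A promoter peak was a peak narrower than 10000 bp whose centre lay at most 1000 bp before, or 100 bp after, the start of a curated protein-coding RefSeq transcript on mm10. 4596 of the 45987 peaks in the deposited table met this rule, which is 9.99% of them. They lay in the windows of 5048 of 21000 protein-coding genes, and the gene with the nearest start gives each peak its name here. H3K27Ac was measured by ChIP-Seq, the sequencing of DNA bound by an antibody, in ventricles of mouse hearts at postnatal day 7 (P7). There were 2 hearts with both Arid1a alleles floxed and no Cre (control) and 2 with the same floxed alleles and the aMHC-Cre transgene (Arid1a cKO), each with an input library, so that 8 libraries were made in all. The αMHC promoter drives Cre in cardiomyocytes, and the ventricles also hold fibroblasts, endothelial cells and other cells in which Arid1a is not deleted by it.

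The deposited table gives each peak as the authors' mean of each group, on a log2 scale of normalized reads. No value of a single heart was analysed, so the spread between hearts is unknown, no difference was tested, and no value carries a standard deviation. Levels are given below as normalized reads, and differences as Arid1a cKO minus control on the log2 scale. Differences of at least 2-fold, which is 1 on that scale, were counted. Depth per heart is unknown. A difference in these whole ventricles can come from fewer cells of a type or from less acetylation per cell, and these cannot be told apart.

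H3K27Ac is placed by the acetyltransferases p300 and CBP and marks promoters and enhancers in use. Many promoters of genes that all cells use lie in CpG islands, stretches rich in the dinucleotide CG, and are acetylated in most tissues. Promoters of genes used in few tissues more often lack a CpG island. ARID1A is a DNA-binding subunit of the BAF (SWI/SNF) complex, which moves nucleosomes and is known to keep enhancers open and acetylated.

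To show the kinds of promoter that the results turn on, 9 promoters are printed from 250 bases before the start to 50 after it, 5′ to 3′ in the direction of transcription, with each CG dinucleotide in capitals. The sequences are RefSeq's, build GRCm38.p6. The 6 promoters whose peaks were over 2-fold lower in Arid1a cKO come before the 2 that were over 2-fold higher and that of Arid1a itself, which differed little. They are Kcnj3 (chr2:55435720-55436019, + strand), Rap1gap2 (chr11:74522752-74523051, - strand), Hhatl (chr9:121792458-121792757, - strand), Klhdc7a (chr4:139967977-139968276, - strand), Asb2 (chr12:103338341-103338640, - strand), Akt2 (chr7:27607086-27607385, + strand), Bdnf (chr2:109694159-109694458, + strand), Aspm (chr1:139454523-139454822, + strand) and Arid1a (chr4:133753936-133754235, - strand).
Kcnj3: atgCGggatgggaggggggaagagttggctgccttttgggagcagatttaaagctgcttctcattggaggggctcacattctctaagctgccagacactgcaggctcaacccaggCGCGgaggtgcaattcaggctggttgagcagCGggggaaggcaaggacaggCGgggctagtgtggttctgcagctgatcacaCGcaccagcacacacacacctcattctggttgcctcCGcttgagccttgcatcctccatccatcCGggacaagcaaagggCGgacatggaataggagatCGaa
Rap1gap2: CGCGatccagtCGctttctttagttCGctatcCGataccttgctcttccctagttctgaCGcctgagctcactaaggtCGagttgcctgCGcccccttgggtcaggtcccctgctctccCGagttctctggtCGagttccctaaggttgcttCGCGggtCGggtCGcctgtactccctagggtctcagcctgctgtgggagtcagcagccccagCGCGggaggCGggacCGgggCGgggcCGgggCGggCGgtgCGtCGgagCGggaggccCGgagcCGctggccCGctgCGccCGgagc
Hhatl: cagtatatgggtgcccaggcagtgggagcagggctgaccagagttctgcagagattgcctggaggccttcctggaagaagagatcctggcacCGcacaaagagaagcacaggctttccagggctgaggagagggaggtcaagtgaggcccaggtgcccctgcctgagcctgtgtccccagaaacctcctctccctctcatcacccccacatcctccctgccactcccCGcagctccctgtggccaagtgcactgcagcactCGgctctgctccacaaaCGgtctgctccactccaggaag
Klhdc7a: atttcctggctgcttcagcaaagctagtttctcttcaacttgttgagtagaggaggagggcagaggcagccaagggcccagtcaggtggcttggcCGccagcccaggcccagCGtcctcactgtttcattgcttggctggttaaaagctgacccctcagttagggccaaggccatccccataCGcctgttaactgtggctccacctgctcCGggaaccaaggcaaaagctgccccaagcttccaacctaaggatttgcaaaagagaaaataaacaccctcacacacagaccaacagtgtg
Asb2: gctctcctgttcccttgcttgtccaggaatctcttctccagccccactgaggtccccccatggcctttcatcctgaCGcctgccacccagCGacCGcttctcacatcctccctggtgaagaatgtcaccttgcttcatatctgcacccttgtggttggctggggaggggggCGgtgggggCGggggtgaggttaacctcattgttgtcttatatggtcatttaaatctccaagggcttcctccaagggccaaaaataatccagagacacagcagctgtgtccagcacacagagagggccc
Akt2: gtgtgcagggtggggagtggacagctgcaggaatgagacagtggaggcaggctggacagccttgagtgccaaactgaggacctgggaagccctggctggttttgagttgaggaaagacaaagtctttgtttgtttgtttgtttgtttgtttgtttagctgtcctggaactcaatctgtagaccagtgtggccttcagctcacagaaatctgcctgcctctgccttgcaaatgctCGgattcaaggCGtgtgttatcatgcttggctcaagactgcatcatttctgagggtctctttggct
Bdnf: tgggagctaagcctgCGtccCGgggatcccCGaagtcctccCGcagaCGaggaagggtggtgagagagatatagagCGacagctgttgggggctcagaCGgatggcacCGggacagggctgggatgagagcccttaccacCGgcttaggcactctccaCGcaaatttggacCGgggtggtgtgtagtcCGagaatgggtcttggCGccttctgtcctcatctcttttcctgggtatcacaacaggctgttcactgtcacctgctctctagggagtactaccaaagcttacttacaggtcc
Aspm: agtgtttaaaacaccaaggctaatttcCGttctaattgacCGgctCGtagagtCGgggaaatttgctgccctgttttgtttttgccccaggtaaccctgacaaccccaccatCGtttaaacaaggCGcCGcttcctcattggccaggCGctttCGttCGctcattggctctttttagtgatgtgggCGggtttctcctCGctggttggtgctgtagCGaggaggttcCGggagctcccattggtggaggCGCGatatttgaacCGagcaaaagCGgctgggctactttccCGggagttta
Arid1a: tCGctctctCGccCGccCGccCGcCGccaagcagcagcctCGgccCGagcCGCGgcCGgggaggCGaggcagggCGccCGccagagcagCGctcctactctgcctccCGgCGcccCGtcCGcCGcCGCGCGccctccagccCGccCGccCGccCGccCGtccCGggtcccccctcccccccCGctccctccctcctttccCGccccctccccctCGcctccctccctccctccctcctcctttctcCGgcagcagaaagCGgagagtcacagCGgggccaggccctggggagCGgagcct
The promoters of Akt2, Hhatl, Klhdc7a and Asb2 hold only 2, 4, 4 and 5 CG dinucleotides, while those of Rap1gap2 and Arid1a hold 30 and 36. Kcnj3, Bdnf and Aspm lie between them with 10, 13 and 19.

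Most promoter peaks had nearly the same H3K27Ac level in both groups. The median difference was 0.01, the interquartile range ran from -0.12 to 0.16, and 92.7% were within 1.5-fold, against 67.8% of the 40675 other peaks under 10000 bp. 59 promoter peaks (1.28%) were at least 2-fold lower in Arid1a cKO, against a background of 10.6% of all peaks. 50 promoter peaks (1.09%) were at least 2-fold higher, against a background of 4.57% of all peaks. Promoter peaks thus made up 1.21% of all the peaks that were 2-fold lower and 2.38% of all that were 2-fold higher, though they are 9.99% of the table. At 1.5-fold, 138 promoter peaks (3.0%) were lower, against 17.30% of all peaks, and 198 (4.31%) were higher, against 12.02%. 5 promoter peaks lay between 1.9 and 2-fold lower, just short of the size counted, and 14 between 1.9 and 2-fold higher.

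**Figure D1:**
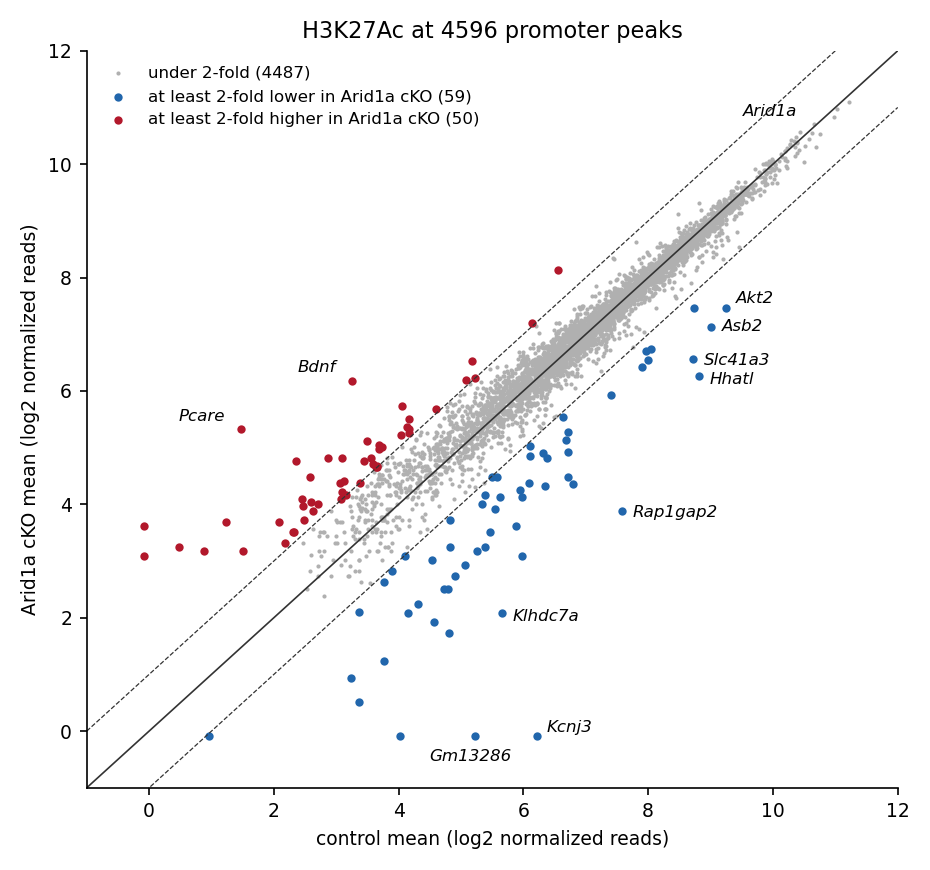
Control mean (x axis) and Arid1a cKO mean (y axis) of H3K27Ac at 4596 promoter peaks, both in log2 normalized reads, with 1 point per peak. The solid line marks equal means and the dashed lines 2-fold. The points lie tightly along the solid line at high levels, with 59 peaks below the lower dashed line and 50, nearly all at low level, above the upper one.

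The largest difference was at the promoter of Kcnj3, which encodes a subunit of the G protein-gated potassium channel of the heart. Its peak (chr2:55433973-55436724) held 74.0 normalized reads in control and 0.946 in Arid1a cKO. The latter is the lowest group mean of any peak in the table, so the fold is given against a floor of 3 reads, at which it was at least 24.7-fold lower. The predicted gene Gm13286 went from 37.5 to the same 0.946 reads, at least 12.5-fold lower. Of the 24 peaks named for their differences, it was the only 1 in which sampled 50-base words occurred again on the same chromosome. This held for 2 of its 6 words, so part of its reads may come from other copies.

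Among peaks above that floor, Rap1gap2 (chr11:74521444-74524483), an inhibitor of the small GTPase Rap1, had the largest difference, from 191 to 14.7 reads (-3.70, 13.0-fold lower). This peak lay over an internal start, 67385 bp from the gene's first annotated start. Klhdc7a, a kelch domain protein, went from 50.6 to 4.26 reads (-3.57), and Ip6k3, an inositol hexakisphosphate kinase, from 62.7 to 8.51 (-2.88). These promoters all stood at moderate or low level in control.

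Of the strongly acetylated promoters, that of Hhatl (chr9:121790804-121796107), a muscle protein related to hedgehog acyltransferase, had the largest difference, from 452 to 77.2 reads (-2.55, 5.86-fold lower). The magnesium transporter gene Slc41a3 went from 422 to 95 reads at an internal start (-2.15). Asb2, a substrate adaptor of a ubiquitin ligase in muscle, went from 516 to 140 reads (-1.88), and Akt2, a kinase of insulin signalling, from 605 to 177 (-1.77), both at internal starts.

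The 12 most negative differences were taken among peaks of at least 32 reads in the higher group, and weaker peaks are left out. The other 5 of these 12 were at lower levels. Lrrc52, an auxiliary subunit of potassium channels, went from 111 to 20.4 reads and Tmc7, a transmembrane channel-like protein, from 105 to 22.3. The adherens junction gene Plekha7 went from 58.9 to 12.3 reads, the atypical MAP kinase gene Mapk4 from 41.6 to 9.51, and the sodium/proton exchanger gene Slc9a7 from 33.4 to 7.62. All 12 lay between -6.29 and -2.13, and 3 of them (Rap1gap2, Plekha7 and Slc41a3) were at internal starts.

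The promoter peaks with higher means in Arid1a cKO were mostly weak in control. Pcare, a gene of photoreceptor cilia, stood at 2.79 reads in control, under the floor of 3, and 40.2 in Arid1a cKO, at least 13.4-fold higher. Bdnf (chr2:109693193-109695746), which encodes brain-derived neurotrophic factor, went from 9.51 to 72.5 reads (2.93, 7.62-fold higher) at an internal start. Fdps, an enzyme of sterol synthesis, went from 18 to 39.9 reads (1.15).

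The 12 most positive differences, again among peaks of at least 32 reads in the higher group, also included the galectin-related Grifin (11.3 to 34.5 reads), the zinc finger gene Zfp385b (12.8 to 33.1) and Plac8l1 (36.0 to 91.8). Others were the cytosolic DNA sensor gene Aim2 (18 to 45.6), the trophoblast glycoprotein gene Tpbg (13.4 to 32.2), the collagen gene Col12a1 (17.6 to 41.4) and Rnaseh2a, a subunit of a ribonuclease that acts in DNA replication (16.4 to 37.5). Aspm, a spindle gene whose promoter is printed above, went from 37.3 to 75.1 reads (1.01) and lay just inside the size counted. 7 of the 50 peaks that were 2-fold higher had a control mean of at most 3 reads, and 7 of the 59 that were 2-fold lower had an Arid1a cKO mean of at most 3 reads.

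At the other end of the scale, the 5 promoter peaks with the highest control means differed little. Kmt2e, a gene related to histone methyltransferases, had 2390 reads in control and 2180 in Arid1a cKO. Zfp36l1, which encodes an RNA-decay factor, had 2090 and 2020, and the AP-1 genes Fosl2 and Jun had 2020 and 1820 and 1720 and 1490. Tns2, a focal adhesion gene, was the lowest of the 5 relative to control (1650 and 1260 reads, -0.39) and the only CpG-poor promoter among them. The promoter of Arid1a itself had 1610 and 1660 reads (0.05). A promoter peak does not show whether the floxed part of the gene was deleted.

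Differences were concentrated in weak promoter peaks. The peaks were divided into quartiles by their mean over all libraries, with the lowest reaching up to 64.0 reads and the highest starting at 260. The lowest quartile held 43 of the 59 peaks that were 2-fold lower and 48 of the 50 that were 2-fold higher, and the highest held 4 and 0. Those of Hhatl, Asb2 and Akt2 were among the 4. The median difference went from 0.13 in the lowest quartile through 0.04 and 0.00 to -0.04 in the highest. With no value per heart, the noise of weak peaks cannot be told apart from differences between the groups.

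Within each level quartile too, a smaller share of promoter peaks than of other peaks was past 2-fold. The lowest quartile has no lower bound and is not matched in level. Its median control level was 34.5 reads for promoter peaks and 21.3 for other peaks. Among other peaks in the same level ranges, 15.0%, 9.17%, 5.05% and 1.9% were at least 2-fold lower, from the lowest quartile to the highest. The shares of promoter peaks were 3.73%, 0.605%, 0.439% and 0.348%. For peaks at least 2-fold higher, the shares in the lowest quartile were 4.16% of promoter peaks and 7.48% of other peaks. In the quartiles above it they were 0.0864%, 0.0879% and 0% of promoter peaks and 0.936%, 0.455% and 0.158% of other peaks.

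**Figure D2:**
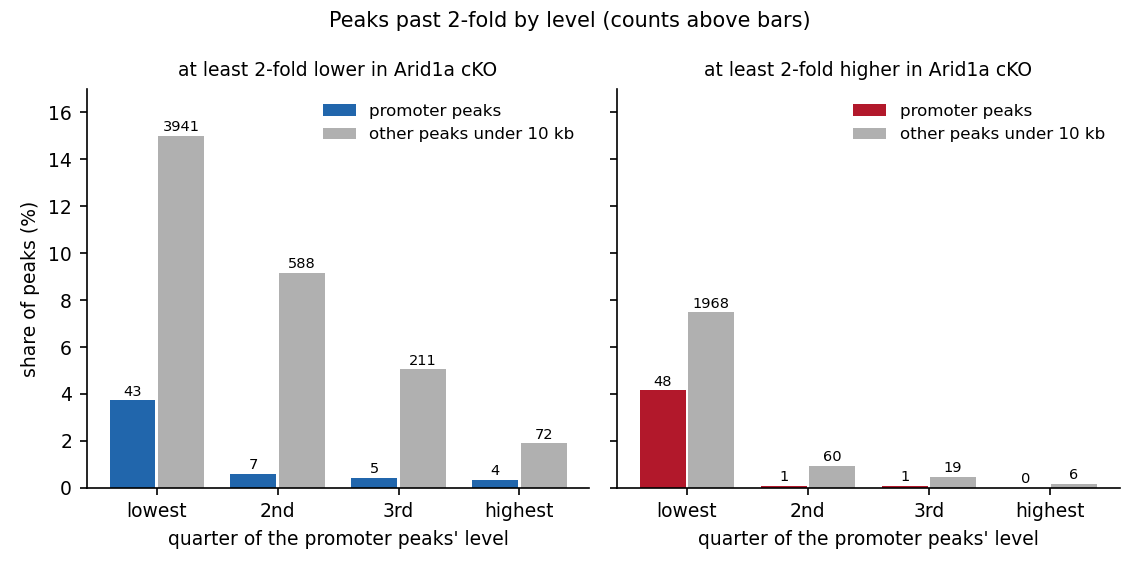
Share of peaks (y axis, %) at least 2-fold lower (left) or higher (right) in Arid1a cKO, by quartile of the promoter peaks' mean level (x axis). Promoter peaks are coloured and other peaks under 10 kb in the same level ranges are grey, with the number of peaks above each bar. From the lowest quartile to the highest, the share lower goes from 3.73% to 0.348% at promoter peaks and from 15.0% to 1.9% at other peaks, and no error bars are drawn because no values per heart were analysed.

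At peaks over a gene start that the rule leaves out, the shares were close to those of promoter peaks. Of 6485 narrow peaks that covered a protein-coding start but had their centre elsewhere, 1.73% were at least 2-fold lower and 1.17% higher. Of 34190 narrow peaks that covered no protein-coding start, 13.7% were lower and 5.78% higher. The rule thus left out many genes with H3K27Ac over their start, since 11960 genes had a start covered by some peak and 6973 of these had no promoter peak by the rule. Most promoter peaks by the rule (98.4%) covered the start they were assigned to. Of the 75 that did not, 9 were 2-fold lower and 6 higher.

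CpG-poor promoters held a large part of the lower peaks. CpG content was taken as the number of CG dinucleotides observed over that expected from the base composition of the 300 bases around the start. 491 promoter peaks had a low ratio (under 0.4), and 31 of these (6.31%) were at least 2-fold lower. 16 of 1348 with a middle ratio and 12 of 2757 (0.435%) with a high ratio (0.75 or more) were lower. The median ratio was 0.38 among lower, 0.48 among higher and 0.81 among the 4487 remaining promoter peaks. Peaks that were 2-fold higher also stood more often at CpG-poor promoters, with 19 (3.87%), 19 and 12 from the low to the high ratio.

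CpG-poor promoters also more often had weak peaks, so the shares were taken within each level quartile. From the lowest quartile to the highest, 8.57%, 3.66%, 4.35% and 4.21% of CpG-poor promoter peaks were at least 2-fold lower. The shares at CpG-rich promoters were 2.17%, 0.275%, 0% and 0%. In the highest quartile all 4 lower peaks were at CpG-poor promoters, of 95 such peaks, and none was among 804 at CpG-rich promoters. The promoters printed above show both kinds, since Hhatl, Asb2 and Akt2 had ratios of 0.14, 0.21 and 0.11 and Arid1a had 0.85. Of the 12 most negative differences among peaks of at least 32 reads in the higher group, 5 were at CpG-poor promoters. The other 7, that of Rap1gap2 with a ratio of 0.86 included, were at promoters with a ratio of 0.4 or more.

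**Figure D3:**
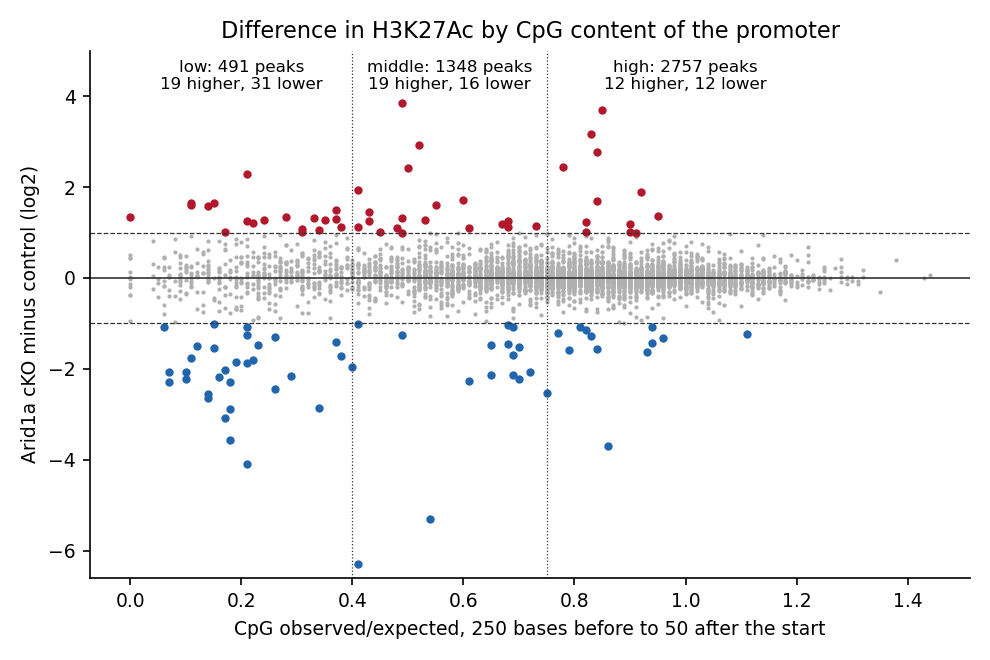
Difference in H3K27Ac (y axis, Arid1a cKO minus control, log2) by the CpG observed/expected ratio around the start (x axis, no unit) for 4596 promoter peaks, with peaks at least 2-fold lower in blue and higher in red. Dotted lines mark ratios of 0.4 and 0.75, and the low class holds 31 lower peaks among 491 while the high class holds 12 among 2757.

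Peaks at starts that lay inside a gene were more often 2-fold lower than peaks at first starts. 405 promoter peaks were assigned to a start over 1000 bp from the gene's first annotated start, and 18 of them (4.44%) were at least 2-fold lower. Of 4191 at first starts, 41 (0.978%) were lower. Among CpG-poor promoters the share was 9.46% at internal starts (14 of 148 peaks) and 4.96% at first starts (17 of 343). In the other classes only 2 internal peaks each were lower, 2 of 134 middle (1.49%, against 1.15% at first starts) and 2 of 123 CpG-rich promoters (1.63%, against 0.380%), which is too few to order the shares. A promoter shared by divergent genes, which lie head to head, was rarely past 2-fold. Of 762 such peaks 1 was lower, that of P2rx6 and Lrrc74b (17.1 to 8.51 reads), and 0 were higher. Peaks at other promoters numbered 3834, with 58 lower and 50 higher. The divergent peaks stood at a higher level, with a median of 179 reads in control against 122 at other promoters. The 2 kinds were not matched in level or CpG content.

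In some genes a lower internal promoter peak stood beside a peak over the first start that differed little. 176 internal promoter peaks, of 174 genes, could be paired with a separate peak over the gene's first start. The internal peak was at least 2-fold lower in 11 pairs and the peak over the first start in 4, those of Esrrb, Egf and, counted in 2 pairs, Gramd1b. Both were lower in 1 pair, of Gramd1b. Over the first starts of the 11, the median difference was -0.33, with a range from -2.53 to 0.04. At Ctbp2, a transcriptional corepressor, the internal peak went from 44.0 to 11.4 reads (-1.95) and the first from 803 to 826 (0.04). At Limch1, an actomyosin regulator, the internal peak went from 81.6 to 20.0 reads and the first from 416 to 331. At Akt2 the internal peak differed by -1.77 and the first, from 622 to 455 reads, by -0.45. Over all pairs there was no common direction, since the internal peak was below the first in 88 and above it in 85.

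58 genes held more than 1 promoter peak by the rule, 117 peaks in all, and the lowest and highest differences within a gene were a median of 0.25 apart. Among peaks with at least 32 reads in the higher group, the gap was largest at Slc41a3, where the first start went from 81.0 to 56.1 reads and the internal from 422 to 95. Gramd1b, a sterol transfer protein gene, followed with 83.3 to 28.1 reads at an internal start and 96.3 to 83.3 at another. Arap1, a GTPase-activating protein gene, differed by 0.96 at its first and 0.19 at an internal start, while the nucleotidase gene Nt5c3 differed by -0.09 and -0.80, the microtubule protein gene Mtus1 by 0.13 and -0.43, and the actin-capping gene Capg by -0.24 and 0.30.

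The genes of the heart's contractile, electrical and metabolic programs were checked with lists. Most of their starts lay under peaks that the rule leaves out. All 10 cardiomyocyte markers had a peak over their start, but 7 of these peaks were 10000 bp or wider and none was a promoter peak by the rule. 8 of the 10 peaks were below control, that of Tnni3 was at 0.00 and that of Myh6 above (3590 reads in control and 3930 in Arid1a cKO, 0.13). Of all 377 peaks of 10000 bp or wider over a protein-coding start, 222 were below 0, with a median of -0.05 and an interquartile range from -0.25 to 0.07. Among the 6485 narrow peaks over a start outside the rule, 3161 were below 0. The lowest of the 10 marker peaks was that over Tnnt2 (1360 and 1010 reads, -0.43), and the peak over Pln went from 3980 to 3370. 9 of 10 hepatocyte markers and 10 of 10 neuron markers had no peak over a start.

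The few promoter peaks of the calcium handling and ion transport list had the largest differences. 4 of its 28 genes had a promoter peak, and 3 of these, Kcnj3 among them, were at least 2-fold lower. Of all promoter peaks, 1.28% were. 20 more genes of the list had a start covered by a peak outside the rule, 1 of which is given for each gene. Those of Kcnh2 (-2.82) and Kcnj2 (-1.18) were at least 2-fold lower and that of Kcnip2 (1.04) at least 2-fold higher. The rest lay between -0.74 (Cacnb2) and 0.45 (Cacna1c), with Atp2a2 at -0.12 and Ryr2 at -0.05. Kcnj11, a pore subunit of the ATP-sensitive potassium channel, went from 1010 to 809 reads (-0.32). In the sarcomere list 4 of 26 genes had a promoter peak, all below control and none 2-fold. These 4 were in the highest level quartile, where 690 of all 1148 promoter peaks lay below 0. The Z-disc gene Tcap went from 526 to 329 reads (-0.68), Des, which encodes desmin, from 626 to 560, Cryab from 771 to 744 and Myl4 from 440 to 431.

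Few metabolic genes had a promoter peak by the rule, and none of those in the oxidative metabolism and fatty acid lists was past 1.5-fold. 6 of the 25 oxidative metabolism genes had one, and all 6 lay below 0, with a median of -0.15. These 6 were in the highest level quartile, where 690 of all 1148 promoter peaks lay below 0 and the median was -0.04. Ogdh, of the citric acid cycle, went from 1070 to 809 reads (-0.41), Cox6a2, the muscle form of a cytochrome oxidase subunit, from 383 to 309 (-0.31), and Ndufs1 of complex I from 541 to 530 (-0.03). Of the fatty acid list, Acadl went from 942 to 798 reads and Slc27a1 from 383 to 380. Ldha, which makes lactate dehydrogenase and is the only glycolysis gene with a promoter peak, went from 690 to 446 reads (-0.63). Rpl3l, a ribosomal protein form made in striated muscle, went from 345 to 205 reads (-0.75), the only 1 of 22 promoter peaks in the ribosomal protein list past 1.5-fold. The median of that list was -0.03.

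Nuclear receptor genes, several of which govern cardiac metabolism, had 9 promoter peaks, 8 of them below control, with a median of -0.33. Of all 4596 promoter peaks, 2117 were below 0. The retinoid X receptor gene Rxrg was at least 2-fold lower, from 79.9 to 29.9 reads (-1.42), at an internal start 19903 bp from the first. Ppara, the fatty acid receptor, went from 923 to 734 reads (-0.33) and Pparg from 153 to 118 (-0.38). The promoter peaks of the estrogen-related receptor genes Esrrg and Esrrb lay at internal starts too. That of Esrrg, 43235 bp from the first start, went from 260 to 199 reads (-0.38), while the peak over its first start, outside the rule, went from 212 to 258 (0.28). That of Esrrb, a weak peak 60527 bp from the first start, went from 10.3 to 7.11 reads (-0.53), and the peak over its first start from 174 to 60.5 (-1.52). Rxra, at 9.45 and 14.7 reads, was the only 1 above control, at a weak peak over an internal start. The peak over the first start of Rxra had 657 and 680 reads (0.05).

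Cell cycle promoters stood on the other side. 17 of 32 listed genes had a promoter peak, 14 were above control and 3 below, while 2391 of all 4596 promoter peaks were above 0. The median of the 17 was 0.25, against 0.01 over all promoter peaks. E2f2, an activator of S phase genes, was at least 2-fold higher, from 24.3 to 51.3 reads (1.08) at an internal start. The stronger peak over its first start went from 95.7 to 131 reads (0.45). Top2a, the topoisomerase of dividing cells, went from 61.0 to 103 reads (0.75), the cyclin E genes Ccne1 and Ccne2 from 48.8 to 74.0 and from 66.7 to 98.4, and E2f3, at a strong promoter, from 449 to 635 (0.50). Cdk2, Pcna and the inhibitor gene Cdkn1b lay at -0.14, -0.10 and -0.12.

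The markers of other cells with a promoter peak are given beside these values. 3 of 10 fibroblast markers had one, and all 3 were above control, with Postn, of the extracellular matrix, at 144 and 231 reads (0.68), Fn1 at 290 and 370 (0.35) and Col1a2 at 170 and 191 (0.17). The other 7 had a start covered by a peak outside the rule, all above control, between 0.35 (Pdgfra) and 0.71 (Col1a1). Of all 6485 narrow peaks over a start outside the rule, 3205 were above 0. C1qb, the only leukocyte marker with a promoter peak, had 42.2 and 37.5 reads (-0.17). Under peaks outside the rule, C1qa and Spi1 lay at 0.17 and 0.27, and 7 leukocyte markers had no peak over a start. None of the endothelial, mural or epicardial markers had a promoter peak by the rule. Under peaks outside it, the epicardial Wt1, Tbx18 and Aldh1a2 lay at -0.22, 0.45 and 0.59. Of 8 such mural markers, Tagln and Acta2 lay at 1.09 and 0.89 and the rest between -0.07 (Cspg4) and 0.19 (Pdgfrb). The 10 endothelial markers, all with starts under peaks outside the rule, lay between -0.02 (Kdr) and 0.23 (Flt1). The part of cell composition in the differences of the lists was not tested.

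None of the promoter peaks in the remaining lists was past 1.5-fold, and several of these lists had few. The 5 BAF and PBAF subunit genes with a promoter peak had a median of 0.00 and a range from -0.15 (Smarcc1) to 0.26 (Brd9). The immediate early genes Fos, Jun, Egr1 and Egr2 lay between -0.22 and 0.02, with a median of -0.20. The 4 promoter peaks of the housekeeping list, those of Actb, Polr2a and Tbp among them, lay between -0.39 and 0.19. Meis2 was the only cardiac transcription factor of 24 with a promoter peak by the rule (734 and 657 reads, -0.16).

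The YAP and TEAD list and the fetal and smooth muscle list were nearly all outside the rule. 2 of the 22 YAP and TEAD genes had a promoter peak, with Ccn2 at 729 and 699 reads and Ptpn14 at 304 and 237. The other 20 had a start covered by a peak outside the rule, 1 of which is given for each gene. 2 of these were at least 2-fold higher, that of Sytl2 from 50.2 to 271 reads (2.43) and that of the growth factor gene Fgf7 from 0.946 to 67.6. The control mean of Fgf7 is the lowest in the table, under the floor of 3 reads. The rest lay between -0.17 (Myof) and 0.41 (Igf1r), with Ccn1 at 0.05 and Ankrd1 at 0.28. Of all 6485 narrow peaks over a start outside the rule, 1.17% were at least 2-fold higher. Of the 12 fetal and smooth muscle genes only Flna had a promoter peak (580 and 498 reads, -0.22). 5 more had a start covered by a peak outside the rule, all above control, and 6 had no peak over a start. The peak over Nppa, which encodes atrial natriuretic peptide, went from 49.5 to 234 reads (2.24), that over Tagln, a smooth muscle actin-binding protein gene, from 15.6 to 33.1 (1.09) and that over Acta2, of smooth muscle actin, from 322 to 596 (0.89). Nppb and Smtn lay at 0.31 and 0.14.

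**Figure D4:**
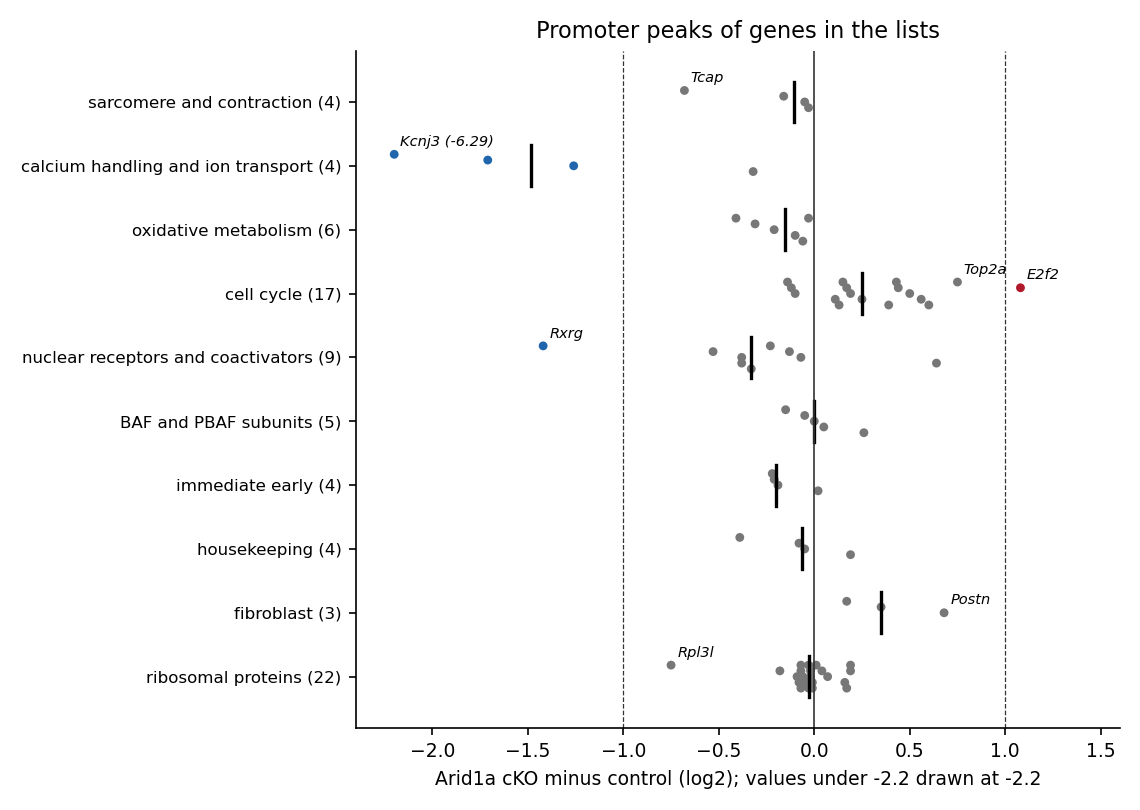
Difference in H3K27Ac (x axis, Arid1a cKO minus control, log2) at the promoter peaks of each list with at least 3 such peaks (y axis, number of peaks in brackets), with 1 point per peak and a bar at the median. Blue and red points are at least 2-fold lower or higher, dashed lines mark 2-fold, and Kcnj3 at -6.29 is drawn at the left edge. Cell cycle promoters have a median of 0.25 and nuclear receptor promoters one of -0.33.

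2339 genes had a promoter peak and at least 1 other peak nearest to them. Among the 977 of these genes with at least 3 other peaks, not picked by any value, the interquartile range was -0.14 to 0.18 for the promoter difference and -0.33 to 0.22 for the median of the other peaks. Genes were then picked by the values of their other peaks, which puts those values at the extreme, so the counts that follow are a description and support no comparison between the kinds of peak. In 293 genes the median of the other peaks was at least 2-fold lower (median over genes -1.68), and their promoter peaks had a median of -0.10. 22 of these promoters were at least 2-fold lower and 204 were below 0. Of the promoters of all 2339 genes, 41 were at least 2-fold lower and 1095 were below 0. The 109 genes with 3 or more lower peaks outside the promoter had a promoter median of -0.17, with 10 promoters at least 2-fold lower and 79 below 0. Among all 977 genes with at least 3 other peaks, 19 promoters were at least 2-fold lower and 464 were below 0.

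Efna5, an ephrin ligand, is an example with 8 of 20 other peaks at least 2-fold lower and a promoter at 320 and 315 reads (-0.02). Bcl2l11, the apoptosis regulator BIM, had 10 of 18 lower and a promoter that went from 541 to 340 reads (-0.67). Rap1gap2 had 8 of 10 lower and a promoter at -3.70. Across the 977 genes with at least 3 other peaks, the promoter difference and the median of the others had a Pearson correlation of 0.35 and a Spearman correlation of 0.32. The values come from the same libraries and scaling, so part of this can be shared between peaks.

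Seen from the promoters, 41 of the 58 genes with a 2-fold lower promoter peak had other peaks, and 30 of the 41 had at least 1 other peak 2-fold lower (67 of 156 peaks, against 10.6% of all peaks). 29 of the 49 genes with a 2-fold higher promoter peak had other peaks, and 6 of the 29 had at least 1 that was 2-fold higher (14 of 113 peaks, against 4.57% of all peaks).

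**Figure D5:**
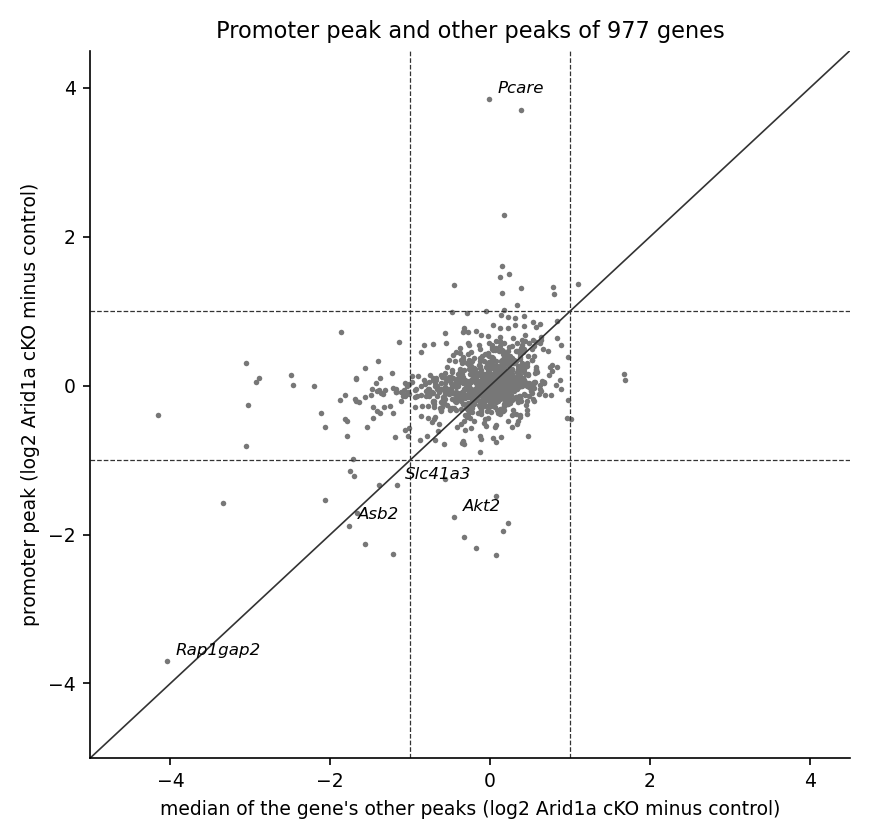
Difference at the promoter peak (y axis; the median where a gene has several) against the median difference of the gene's other peaks (x axis), both as log2 Arid1a cKO minus control, for the 977 genes with at least 3 other peaks. The diagonal marks equal differences and the dashed lines 2-fold, and the cloud is wider along the x axis (interquartile range -0.33 to 0.22) than along the y axis (-0.14 to 0.18).

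Short motifs were counted in the 300 bases of 3681 promoter peaks found in RefSeq's promoter table, on both strands. The SP/KLF motif GGGCGG was in 41.3% of 46 lower, 53.7% of 41 higher and 68.1% of the remaining promoters, and in 35.7% of all 32851 promoters of the table. The CCAAT motif was in 17.4%, 29.3% and 38.2%, and in 37.4% of the table. GGGCGG itself holds a CG, and lower promoters were more often CpG-poor, so the shares were also taken within each CpG class. GGGCGG was then in 18.5% of 27 lower and 26.1% of 322 remaining CpG-poor promoters, in 72.7% of 11 and 62.9% of 1060 middle ones and in 6 of 8 and 76.7% of 2212 CpG-rich ones, with no common direction. CCAAT was in 7 of 27 lower CpG-poor, 1 of 11 lower middle and 0 of 8 lower CpG-rich promoters, against 32.3%, 44.6% and 797 of 2212 of the remaining ones. The TATA motif TATAAA was in 10.9% of lower promoters (5 of 46) and 5.56% of the remaining ones, against 13.6% of the table. Among CpG-poor promoters it was in 14.8% of lower and 14.3% of remaining ones. A motif of the muscle factor MEF2 was in 2 of 46 lower promoters, those of Gm826 and Asb18, in 0 of 41 higher ones, and in 0.223% of the remaining ones (0.326% of the table). Within the CpG-poor class it was in 2 of 27 lower and 2 of 322 remaining promoters (0.621%). The TEAD motif CATTCC was in 13.0%, 12.2% and 11.2% (14.7% of the table), and the ESRR motif AAGGTCA was in 1 lower promoter, that of Rxrg, and in 2.81% of the remaining ones (4.72% of the table). The E-box CACGTG was in 6.52%, 0% and 10.9% (7.15% of the table). The AP-1 motif, TGACTCA or TGAGTCA, was in 0 lower and 3 higher promoters (Gpr39, Tmod2 and Lao1), in 2.75% of the remaining ones and in 5.20% of the table.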

How the data were processed

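H3K27Ac ChIP-Seq and input libraries came from 2 control and 2 Arid1a cKO P7 ventricles, grouped by the genotype and antibody labels. Per the submitters' processing notes, the authors aligned the reads with BWA 0.7.17-r1188 to mm10, found peaks with HOMER (4.11), and used DESeq2 1.24.0 through DiffBind 2.12.0. The methods give merged inputs as the background of the peak calls and keep peaks seen in at least 2 samples. Each peak's deposited concentration is the log2 of the authors' mean normalized reads over a group, so replicates cannot be compared and depth is unknown. The table's remaining columns, the authors' fold change, p-value and FDR, were not used. 0 columns held values of single samples. How the input entered the values is not given in the sources used here.

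Starts came from 45756 curated transcripts of RefSeq GRCm38.p6, whose 21 chromosomes hold every placed peak (7 peaks were on unplaced sequences). Assignment, in Python 3.11.15 with pandas 2.3.3, was tested on simulated data. The difference of the log2 group means was computed without pseudocount. Group means of at most 3 reads were taken as a floor for folds. 418 listed symbols all matched, and the ribosomal list holds 85 symbols that start with Rpl or Rps and a number, without the Rps6k kinases. Other peaks were assigned to the nearest start.

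Named were list genes with a promoter peak, the 12 most negative and 12 most positive differences among peaks of at least 32 reads in the higher group, the 5 highest control means, and the 6 genes with the largest gap between their promoter peaks. Some genes that meet this rule are not reported here. Further genes named (Asb2, Akt2, Limch1, Ctbp2, Aspm, Efna5, Bcl2l11, P2rx6, Lrrc74b and the motif genes) and the split by first and internal start were chosen after their values were seen. The members, lists and comparisons were chosen with earlier results of these data known. No test was run, because the table gives 1 mean per group. Alternatives were the size of change, centring, low levels, the floor, the promoter window, the width limit, noncoding starts, the sex chromosomes and 1 peak per gene.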

Additional observations from a re-analysis of the deposited data

How the results depend on the processing

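The shares past 2-fold varied less than the numbers. Of 10 alternatives, 7 left the number of lower promoter peaks between 45 and 60, and 6 left the number of higher ones between 48 and 50. At 1.5-fold there were 138 lower and 198 higher. With centres from 2000 bp upstream to 500 bp downstream there were 130 and 134 of 8994 peaks (1.45% and 1.49%), and with any narrow peak that covers a start 162 and 120 of 11019 (1.47% and 1.09%). Leaving out peaks under 16 reads left 45 lower and 27 higher of 4420, so 23 of the 50 higher peaks stood below that level. The median difference of 0.01 was 0.00 after centring on the median of all peaks and 0.01 to 0.02 under the other 8 alternatives. No paired analysis was possible because the table holds only group means. Leaving out a heart was not possible for the same reason, and no statement here rests on a test.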

Other observations

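2 groups of promoters were described with lists chosen after the values of Fdps and the cell cycle genes had been seen, so they carry no independent weight. Of 24 genes in the sterol synthesis list, 14 had a promoter peak, and all 15 of their peaks were above control in Arid1a cKO, with a median of 0.22. 2 of them, that of Fdps included, were at least 2-fold higher. Sc5d went from 29.4 to 46.9 reads (0.67), Cyp51 from 119 to 179 (0.59) and Insig1, at a strong promoter, from 309 to 383 (0.31). Hmgcs1, Mvk and Mvd each lay at 0.22, and Pmvk at 0.01. 5 of the 15 peaks were in the lowest level quartile, where 64.1% of all promoter peaks were above control and the median was 0.13.

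Of 89 genes of DNA replication and mitosis, 55 had a promoter peak, 41 of them above control and 11 below, with a median of 0.12. Of all 4596 promoter peaks, 2391 were above 0. Aspm, of the mitotic spindle, went from 37.3 to 75.1 reads (1.01), and Rnaseh2a was also at least 2-fold higher. Cdc6, which loads the replicative helicase, went from 24.3 to 38.9 reads (0.68), Nek2 from 30.1 to 47.5 (0.66), Ccnf from 62.7 to 91.8 (0.55) and Mcm4 from 102 to 142 (0.48). Strong promoters of the list lay near 0, with Cenpa at 452 and 446 reads and Ncapd2 at 449 and 455, and Kif11 went from 357 to 298 (-0.26). 4 of the 55 peaks (7.27%) were at least 1.5-fold higher, against 4.31% of all promoter peaks and 14.7% of those in the lowest level quartile.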
